A study of Mus musculus with 120 samples.

Results

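Thalamus of wild-type mice that had received a virus carrying the transcription factor CREB was set against thalamus of wild-type mice that had received a virus carrying mCherry, a red fluorescent protein. The members were chosen by label alone, as the libraries titled for CREB and mCherry in thalamus, and they were 8 of the 120 libraries of the series, 4 in each group. All mice were of the C57BL/6J strain. An adeno-associated virus had been injected behind the eye (retro-orbital route) 3 weeks before dissection, and the brain was dissected at ZT12.5, shortly after the lights went off in the light-dark cycle. The other comparisons used below had 8 libraries each and the same injection, strain and time. They were CREB against eGFP, a green fluorescent protein, in thalamus of Sleepy mice, which carry the allele Sik3E13∆/+ of the kinase gene Sik3, and CREB against mCherry in cortex and in hypothalamus of wild-type mice. In addition, 4 libraries of wild-type thalamus with a virus for HDAC4CA, a form of the histone deacetylase HDAC4, were set against the same mCherry thalamus libraries. Promoter, serotype, the cells the virus reached, and sex and age of the mice are not given in the sources used here. The series' design text calls the replicates biological. It writes ABC-CREB for the wild-type groups where the sample titles have CREB, and the labels do not say whether the delivered CREB is a modified form.

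CREB binds the cAMP response element in gene promoters, a short palindrome, and turns on transcription once it is phosphorylated or joined by a coactivator of the CRTC family. Salt-inducible kinases such as SIK3 phosphorylate CRTC proteins and class IIa histone deacetylases such as HDAC4 and so hold them in the cytoplasm, and Sik1 is itself a known CREB target. Thalamic relay neurons pass sensory signals to the cortex and switch between tonic and burst firing, in which T-type calcium channels and HCN channels take part.

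With CREB, 576 of the 16875 genes tested were called at an adjusted p under 0.05 (limma, Benjamini-Hochberg), 3.41% of them. Of these, 390 genes rose (2.31% of those tested) and 186 fell (1.1%). Most differences were small. The median rise was 0.32 and the median fall was -0.26 on the log2 scale, 281 called genes differed by less than 0.3, and 18 rose and 3 fell by more than 2-fold. Creb1 and Cacna1s, which encodes a calcium channel pore, were among the largest rises, and Rgs4, which encodes a brake on G protein signalling, was among the clearest falls. In 531 of the 576 genes the 4 CREB libraries did not overlap the 4 mCherry libraries, against 1505 of all genes tested (8.92%). The call itself favours genes without overlap, so that count is a description. Genes named below for a large change or a small adjusted p were also chosen to be without overlap. Its absence in them is no further result. With no rescaling of the libraries the count was 267, of which 159 were higher and 108 lower. Leaving out CREB library 2, 3 or 4 gave 188, 247 or 272 calls, and leaving out mCherry library 1, 2 or 4 gave 370, 311 or 199. All 576 kept their direction in those of the 8 such fits that tested them, and 159 (117 rises, 42 falls) were called in each of the 8. Where a gene below is called "in all 8" or in fewer, the count is of these fits. A gene that the filter left out of a fit counts there as not called.

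**Figure D1:**
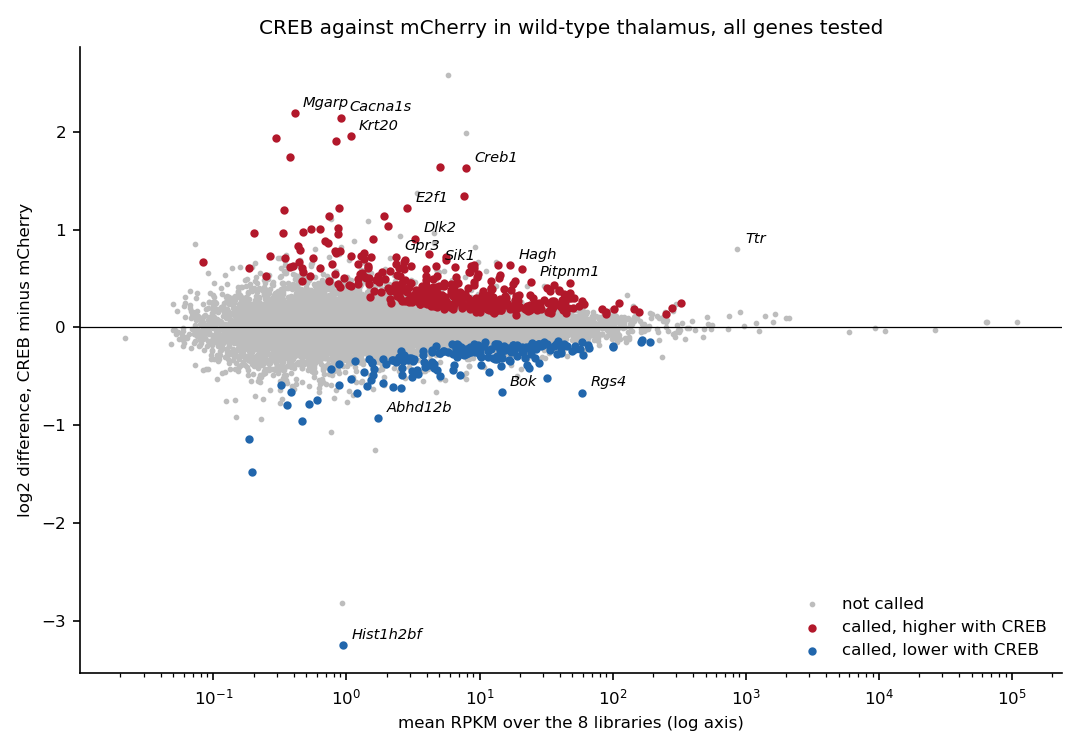
Each point is 1 of the 16875 genes tested in wild-type thalamus, at its mean RPKM over the 8 libraries (log axis) and its log2 difference, CREB minus mCherry; red points are the 390 called rises, blue points the 186 called falls and grey points were not called. Most called genes lie within 0.5 of 0, while Cacna1s, Krt20, Mgarp and Creb1 stand above 1.5 and Hist1h2bf, a histone gene with near-identical copies, stands at -3.25.

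The 8 libraries held 20.4 to 26.4 M reads assigned to genes, recovered from the deposited values. On the first principal component (32.1% of the variance) mCherry library 1 stood apart at -30.1, with the other libraries between -9.63 and 13.7. The second (20.6%) separated the groups, with CREB libraries at 4.06 to 17.1 and mCherry libraries at -14.3 to -7.33. Transthyretin (Ttr), made by the choroid plexus beside the thalamus, was at 23.8 RPKM in mCherry library 1 and at 537 to 1687 RPKM in the other mCherry libraries. No member of the choroid plexus marker list was called (11 tested, median 0.40), and its summed level ran over 393 to 1706 RPKM with CREB and 99.9 to 2282 RPKM with mCherry. The part of this in the counts of called genes was not tested beyond leaving out that library. In bulk tissue, fewer cells of a type and less RNA per cell cannot be told apart.

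The palindrome of the cAMP response element, TGACGTCA, was searched in the 250 bases before each start of a gene in RefSeq promoters (GRCm38.p6). A gene with several entries counted if any of them held the palindrome, which reads the same on both strands. It stood in 20 of 283 rises with a promoter entry (7.07%), in 6 of 134 falls (4.48%) and in 351 of 11667 tested genes (3.01%). Over all 32851 promoter entries, each counted singly, the share was 1.55%, a measure unlike the shares of genes. The 8 rises with the palindrome and the smallest adjusted p are shown because they put the letters that CREB binds beside a measured rise; they were chosen after their values were seen. Capitals mark the palindrome, with 30 bases on each side, 5′ to 3′ on the gene's strand.
Idnk, chr13:58157594-58157661, plus strand: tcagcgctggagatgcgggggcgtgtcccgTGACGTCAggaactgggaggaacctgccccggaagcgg
Mturn, chr6:54681580-54681647, plus strand: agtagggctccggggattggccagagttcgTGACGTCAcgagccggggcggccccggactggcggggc
Cltb, chr13:54611357-54611424, minus strand: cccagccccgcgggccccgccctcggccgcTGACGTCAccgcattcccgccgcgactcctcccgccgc
Ogdh, chr11:6291516-6291583, plus strand: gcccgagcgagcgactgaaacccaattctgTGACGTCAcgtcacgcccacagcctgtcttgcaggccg
Trp53inp2, chr2:155381785-155381852, plus strand: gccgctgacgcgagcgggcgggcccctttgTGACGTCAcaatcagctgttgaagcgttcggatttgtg
Senp2, chr16:22009379-22009446, plus strand: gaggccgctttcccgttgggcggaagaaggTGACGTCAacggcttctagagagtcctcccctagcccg
Tmem198, chr1:75479475-75479542, plus strand: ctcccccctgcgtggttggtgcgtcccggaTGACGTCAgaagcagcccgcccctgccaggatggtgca
Larp7, chr3:127553433-127553500, minus strand: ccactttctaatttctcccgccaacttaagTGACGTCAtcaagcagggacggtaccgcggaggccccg

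Idnk, a gluconokinase gene, was at 7.13, 8.13, 8.12 and 8.23 RPKM with CREB and 5.49, 4.84, 5.45 and 4.92 RPKM with mCherry, a log2 difference of 0.62 ± 0.06 (SE; adjusted p = 0.00112). Mturn, which encodes maturin, a regulator of neural progenitor differentiation, was at 42.8, 44.8, 46.0 and 44.1 RPKM with CREB and 33.9, 35.4, 34.0 and 34.99 RPKM with mCherry, 0.38 ± 0.04 (adjusted p = 0.00118). In both genes every CREB library was above every mCherry library. Cltb (a clathrin light chain) rose by 0.33 ± 0.04 and Ogdh (the 2-oxoglutarate dehydrogenase subunit of the citric acid cycle) by 0.30 ± 0.04. The other 4 rose by 0.23 (Senp2, a SUMO protease) to 0.39 (Tmem198). In 19 of the 20 rises with the palindrome the groups did not overlap, near the share of all called genes (531 of 576). All 20 were also higher with CREB in Sleepy thalamus and 13 were called there, beside 380 of 385 and 212 of 390 of all rises, so these counts are not particular to the palindrome. The palindrome lay a median of 36.5 bases before the start in the 20 rises and 49 bases in the 351 tested genes, and within 100 bases in 90% of the 20 rises and 80.3% of the 351 genes.

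The core motif, TGACG or CGTCA, was found in 149 of the 283 rises (52.7%), in 28 of the 134 falls (20.9%) and in 3427 of the 11667 tested genes (29.4%); promoters with the palindrome hold it by construction. Read the other way, 20 of 351 genes with the palindrome rose (5.70%), as did 129 of 3076 with the core motif alone (4.19%) and 134 of 8240 with neither (1.63%). Their median log2 differences were 0.05, 0.03 and 0.00. Base composition differed little between rises and tested genes, with a median GC content of 61.2% in both and a median of 17 CG pairs in rises and 16 in tested genes, while falls had 65.4% GC and 16 CG pairs. Other motifs searched the same way were the AP-1 letters TGAGTCA or TGACTCA, held by 2.83% of rises, 5.22% of falls and 3.91% of tested genes, and the E-box CACGTG, held by 10.95% of rises, 9.70% of falls and 9.53% of tested genes. A match describes letters and does not show binding. None of the 28 named rises with a promoter entry held the palindrome and 8 held the core motif. Windows of 4 of these, among the genes described below, are shown with the core motif in capitals and 30 bases on each side.
Dlk2, chr17:46297363-46297427, plus strand: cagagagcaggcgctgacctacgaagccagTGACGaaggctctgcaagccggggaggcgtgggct
E2f1, chr2:154569533-154569597, minus strand: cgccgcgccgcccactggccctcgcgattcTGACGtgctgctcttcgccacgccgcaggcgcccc
Gpr3, chr4:133212542-133212606, minus strand: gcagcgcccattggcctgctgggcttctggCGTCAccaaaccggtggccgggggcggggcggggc
Nr4a3, chr4:48045128-48045192, plus strand: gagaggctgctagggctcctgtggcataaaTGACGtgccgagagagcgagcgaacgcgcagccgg

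Creb1, the gene of CREB (chromosome 1, 64532645 to 64604548, plus strand, GRCm38), checks the label. It was at 9.39, 13.4, 12.9 and 12.5 RPKM with CREB and 3.71, 3.99, 3.84 and 3.82 RPKM with mCherry. The means were 12.1 ± 1.81 and 3.84 ± 0.113 RPKM (SD, n = 4 each), 3.14-fold apart, with no overlap and CREB library 1 the lowest of its group. The log2 difference was 1.63 ± 0.09 (adjusted p = 0.000115; in all 8). Reads of the delivered construct count here only as far as they map to Creb1, so the level of CREB protein was not measured. In libraries of wild-type thalamus that received HDAC4CA, a form of HDAC4, Creb1 averaged 3.39 ± 0.186 RPKM (SD, n = 4).

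Of 14 tested genes of the CREB and ATF family, Creb1 and Crem rose, none fell, and the median was -0.02, against 0.01 over all genes tested. Counts in this list and those below stand beside 2.31% of all genes tested that rose and 1.1% that fell. Crem, which encodes activators and the inducible repressor ICER and is itself a CREB target, was at 1.31, 1.596, 1.81 and 1.54 RPKM with CREB and 1.08, 1.01, 1.03 and 1.04 RPKM with mCherry. Every CREB library was above every mCherry library, and the log2 difference was 0.56 ± 0.09 (adjusted p = 0.0106; in all 8). An antisense gene model, Gm6225, overlaps an exon of Crem. Whether the counting used strand is unknown here, and reads of such pairs cannot be told apart. Atf4, a factor of the integrated stress response, differed by 0.11 (adjusted p = 0.233) and Atf1, the closest relative of CREB with Crem, by -0.06 (adjusted p = 0.796), and neither was called.

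Among 9 coactivators and salt-inducible kinase genes, Sik1 and Stk11 rose and none fell (median -0.02), where 2.31% of all genes tested rose. Sik1 (chromosome 17, 31844250 to 31855804, minus strand), the inducible member of the kinase family, was at 5.85, 5.34, 5.96 and 5.77 RPKM with CREB and 3.60, 4.13, 3.96 and 3.26 RPKM with mCherry. The groups were well apart, 1.53-fold between the means of 5.73 ± 0.269 and 3.74 ± 0.388 RPKM (SD, n = 4 each), with a log2 difference of 0.63 ± 0.06 (adjusted p = 0.00129; in all 8). Stk11, which encodes LKB1, the kinase that activates SIKs, rose by 0.20 ± 0.04 (adjusted p = 0.0255), was called in 2 of 8 and overlaps the antisense gene Cbarp. The coactivators were not called. Crtc1 differed by -0.20 (adjusted p = 0.0635), Crtc2 by -0.05, Crtc3 by -0.02, Crebbp by -0.03 and Ep300 by -0.03. Sik3 averaged 15.3 ± 0.713 RPKM with CREB and 14.97 ± 0.416 RPKM with mCherry (SD, n = 4 each), with a 95% interval of the log2 difference of -0.03 to 0.12 (adjusted p = 0.529). Hdac4 averaged 2.54 ± 0.133 RPKM with CREB and 2.65 ± 0.13 RPKM with mCherry, with an interval of -0.17 to 0.08 (adjusted p = 0.792). Neither interval reached a difference of the size seen for Sik1.

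A list of 39 tested genes known as CREB targets from other systems had 5 rises, no fall and a median of 0.08, where 2.31% of all genes tested rose. The list was written with earlier results of these data known, so these counts are not independent of them. Of its members 4 or 5 were called whichever library was left out, and 2 with the replicate number as a block. The rises were Sik1, Gpr3, Id2, Crem and Nr4a3. Gpr3, a receptor that raises cAMP without a known need for ligand, was at 2.77, 2.92, 3.33 and 2.71 RPKM with CREB and 1.67, 1.96, 1.69 and 1.72 RPKM with mCherry. The lowest CREB library exceeded the highest mCherry library, and the log2 difference was 0.72 ± 0.08 (adjusted p = 0.00131; in all 8). Gpr3 shares exon sequence with Cd164l2 on the other strand, and Cd164l2 rose too, by 0.79 ± 0.13. Id2, an inhibitor of basic helix-loop-helix factors, rose by 0.27 ± 0.04 (adjusted p = 0.00974; in all 8). Nr4a3, an orphan nuclear receptor, averaged 1.95 ± 0.164 RPKM with CREB and 1.39 ± 0.21 RPKM with mCherry (0.49 ± 0.10, adjusted p = 0.0312), and was called in 1 of 8. Other classic targets were not called. Bdnf, a neurotrophin, differed by 0.25 (adjusted p = 0.187), Fos by -0.24 (0.558), Per1, a clock gene, by 0.10 (0.511) and Nr4a1 by -0.09 (0.568), the values in brackets being adjusted p. Egr1, an immediate early factor, averaged 4.11 ± 0.69 RPKM with CREB and 6.00 ± 0.803 RPKM with mCherry (log2 difference -0.52, adjusted p = 0.0573). Of 20 immediate early genes Jund and Nr4a3 rose and none fell, with Jund, an AP-1 subunit, at 0.29 (adjusted p = 0.00974; in all 8). Of 36 genes of cAMP and PKA signalling none rose and 1 fell, where 1.1% of all genes tested fell. It was Gnal, the olfactory-type stimulatory G protein, lower by 0.17 on the log2 scale (adjusted p = 0.0342, in 2 of 8).

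**Figure D2:**
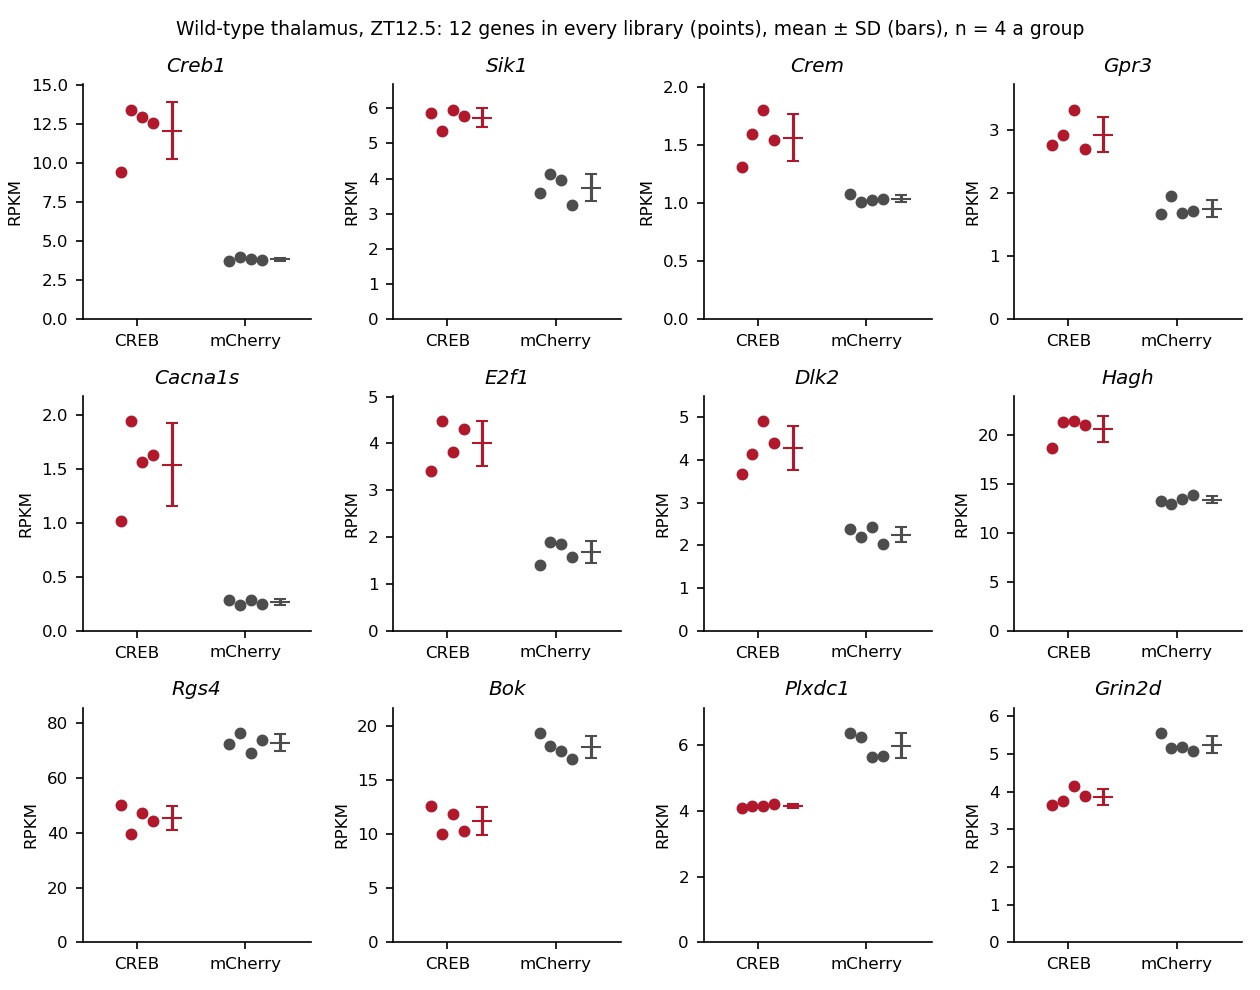
Points are the RPKM of single libraries for 12 genes, CREB in red at left and mCherry in grey at right, with bars for mean ± SD (n = 4 each) and axes that start at 0. In all 12 genes the groups do not overlap, which the naming rule asked of the largest changes and the smallest adjusted p. Creb1 is at 9.39 to 13.4 RPKM with CREB and 3.71 to 3.99 RPKM with mCherry. Rgs4 is at 39.6 to 50.1 RPKM with CREB and 68.9 to 76.5 RPKM with mCherry.

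Several of the largest rises were of genes at low levels with mCherry. Cacna1s (chromosome 1, 136052750 to 136119822, plus strand), the pore of the L-type calcium channel of skeletal muscle, was at 1.02, 1.94, 1.57 and 1.63 RPKM with CREB and 0.289, 0.240, 0.291 and 0.249 RPKM with mCherry. The groups were far apart, 5.77-fold between the means, and the log2 difference was 2.15 ± 0.17 (adjusted p = 0.000639; in all 8). Krt20, an epithelial keratin, was at 1.19, 2.05, 1.71 and 2.12 RPKM with CREB and 0.245, 0.382, 0.415 and 0.492 RPKM with mCherry, a 4.60-fold ratio of means (1.96 ± 0.20, adjusted p = 0.00129; in all 8). The lowest CREB library was again above the highest mCherry library. E2f1, a factor of the G1 to S transition of the cell cycle, was at 3.41, 4.47, 3.82 and 4.30 RPKM with CREB and 1.40, 1.8999, 1.86 and 1.59 RPKM with mCherry, 2.37-fold (1.22 ± 0.11, adjusted p = 0.000869; in all 8). CREB library 1 was the lowest of its group for Cacna1s, Krt20 and E2f1, as it was for Creb1. Cacna1s overlaps the antisense model Gm37759.

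Below these came Rd3l (1.14 ± 0.23, adjusted p = 0.0269; in 2 of 8), Ppp1r13l, which encodes the p53 inhibitor iASPP (1.02 ± 0.13, adjusted p = 0.00436; in all 8), and Epor, the erythropoietin receptor (0.95 ± 0.15, adjusted p = 0.00894; in all 8). Ppp1r13l averaged 1.20 ± 0.218 RPKM with CREB and 0.541 ± 0.0364 RPKM with mCherry, and Epor 1.17 ± 0.255 RPKM with CREB and 0.552 ± 0.0334 RPKM with mCherry (SD, n = 4 each). Dlk2, a transmembrane relative of the Notch ligands, was at 3.66, 4.14, 4.90 and 4.38 RPKM with CREB and 2.38, 2.19, 2.42 and 2.03 RPKM with mCherry, without overlap (0.91 ± 0.07, adjusted p = 0.000639; in all 8). It overlaps Abcc10 on the other strand. Arhgap11a, a GTPase activator of dividing cells, rose by 0.78 and Casz1, a zinc finger factor of developing neurons and heart, by 0.77, both in all 8. Among genes under 1 RPKM in both groups, chosen after their values were seen, Cenpa, the histone of the centromere, was at 0.524 ± 0.129 RPKM with CREB and 0.0633 ± 0.0265 RPKM with mCherry (log2 difference 1.94), and Mgarp, a mitochondrial protein gene, at 0.734 ± 0.233 RPKM with CREB and 0.0812 ± 0.0369 RPKM with mCherry (2.20).

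The rises with the smallest adjusted p also held moderately expressed genes. Hagh, glyoxalase II of methylglyoxal clearance, was at 18.7, 21.3, 21.4 and 21.1 RPKM with CREB and 13.3, 12.9, 13.5 and 13.9 RPKM with mCherry (0.63 ± 0.05). Pitpnm1, a phosphatidylinositol transfer protein, was at 26.2, 28.7, 29.3 and 29.1 RPKM with CREB and 21.3, 20.2, 21.5 and 19.9 RPKM with mCherry (0.47 ± 0.04). Arfip2, arfaptin 2, which binds small GTPases at the Golgi, was at 9.86, 10.2, 11.4 and 10.6 RPKM with CREB and 7.48, 7.72, 8.29 and 7.39 RPKM with mCherry (0.46 ± 0.04). In each of these 3 genes the adjusted p was 0.000639, the groups did not overlap and the call held in all 8. The spread within a group was narrow, with SDs of 1.31, 1.47 and 0.64 RPKM with CREB and 0.392, 0.797 and 0.406 RPKM with mCherry for Hagh, Pitpnm1 and Arfip2. Arfip2 overlaps Timm10b on the other strand.

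Rgs4 and Bok were among the falls with both a large size and a small adjusted p. Rgs4 (chromosome 1, 169741477 to 169747642, minus strand), which speeds the shut-off of Gi and Gq signals, was at 50.1, 39.6, 47.2 and 44.3 RPKM with CREB and 72.2, 76.5, 68.9 and 73.7 RPKM with mCherry. It fell by 0.67 ± 0.07 on the log2 scale (adjusted p = 0.00139; in all 8), and the highest CREB library was below the lowest mCherry library. Bok, a member of the Bcl-2 family of cell death regulators, was at 12.7, 10.02, 11.9 and 10.3 RPKM with CREB and 19.4, 18.2, 17.7 and 17.0 RPKM with mCherry, and fell by 0.67 ± 0.08 (adjusted p = 0.00239; in all 8).

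Plxdc1, a plexin-domain membrane protein, was at 4.07, 4.13, 4.13 and 4.21 RPKM with CREB and 6.37, 6.23, 5.62 and 5.66 RPKM with mCherry, and fell by 0.50 ± 0.06 (adjusted p = 0.00239; in all 8). Grin2d, the NMDA receptor subunit GluN2D, was at 3.65, 3.76, 4.15 and 3.89 RPKM with CREB and 5.57, 5.16, 5.19 and 5.08 RPKM with mCherry, and fell by 0.41 ± 0.05 (adjusted p = 0.00239; in all 8). Both sets of libraries were apart with no overlap, and Grin2d overlaps the antisense model Gm45441. Nrep, linked to neuronal regeneration, averaged 12.4 ± 0.298 RPKM with CREB and 16.6 ± 0.433 RPKM with mCherry (SD, n = 4 each) and fell by 0.39 ± 0.04 (adjusted p = 0.00129; in all 8). Further falls on the log2 scale were Abhd12b by 0.93 (in 2 of 8), Impa2, an inositol monophosphatase, by 0.67 (in 6 of 8), Psg16 by 0.59 (in 7 of 8) and Scube2, a secreted hedgehog carrier, by 0.57 (in 1 of 8). Tnc, the matrix protein tenascin C, fell by 0.54 (in 5 of 8), Gpr149, an orphan receptor, by 0.52 (in all 8) and Tekt5, a tektin, by 0.51 (in 2 of 8).

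The largest fall, Hist1h2bf, is uncertain. It encodes histone H2B, as do near-identical copies beside it, and how reads that match several copies were handled is not given in the sources used here. It was at 0.0902, 0.181, 0 and 0.0859 RPKM with CREB and 2.52, 1.70, 0.662 and 2.30 RPKM with mCherry, a mean of 1.00 read with CREB and 19.7 reads with mCherry. The log2 difference was -3.25 ± 0.45 (adjusted p = 0.0103; in 5 of 8). Its neighbour Hist1h2bm was at 0, 0, 0 and 0.104 RPKM with CREB and 1.58, 1.16, 0.400 and 1.59 RPKM with mCherry, so the groups did not overlap for either gene. HDAC4CA libraries set against the same mCherry libraries also had less Hist1h2bf, by a log2 difference of -3.39, and the 2 comparisons share those mCherry libraries. Levels were also lower with CREB outside thalamus, where Hist1h2bf averaged 0.128 RPKM with CREB and 0.935 RPKM with mCherry in cortex, and 0.0707 RPKM with CREB and 0.711 RPKM with mCherry in hypothalamus. Hist1h2bb was called in cortex, at -3.80 (adjusted p = 0.0442), and not in thalamus, at -2.82 (adjusted p = 0.0594). Another H2B gene, Hist1h2be, rose in thalamus by 0.55 (adjusted p = 0.0243). Whether the CREB and mCherry libraries differ in preparation or in selection of polyadenylated RNA was not tested. Hist2h2be, a polyadenylated H2B gene, fell by 0.61 (adjusted p = 0.0131; in all 8).

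Of 17 voltage-gated calcium channel genes, Cacna1s and Cacna1g rose and none fell (median -0.02), 2 of 17 beside 3.41% of all genes tested. Cacna1g, the main T-type channel of relay neurons, was at 17.1, 16.9, 18.4 and 17.7 RPKM with CREB and 15.1, 16.3, 14.6 and 14.7 RPKM with mCherry, without overlap, and rose by 0.23 ± 0.04 (adjusted p = 0.0195; in 4 of 8). The other T-type genes were not called, Cacna1h at 0.02 (adjusted p = 0.963) and Cacna1i at -0.15 (adjusted p = 0.123). Of 13 HCN and sodium channel genes only Hcn2 was called (median -0.08). Hcn2, an HCN channel of relay neurons, was at 58.2, 59.1, 61.9 and 61.2 RPKM with CREB and 53.7, 51.3, 54.3 and 50.3 RPKM with mCherry, without overlap, and rose by 0.22 ± 0.03 (adjusted p = 0.00569; in all 8).

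Of 52 potassium channel genes 2 rose and 3 fell (median -0.09). Of all genes tested 2.31% rose and 1.1% fell, which also stands beside the counts of the next lists. Kcnab3, an auxiliary beta subunit that overlaps its antisense gene Kcnab3os, rose by 0.51 (adjusted p = 0.00148; in all 8). Kcnj6, the GIRK2 channel, rose by 0.27 (in 1 of 8). Falls on the log2 scale included Kcnab2 by 0.19 (in 2 of 8) and Kcnc2, the fast-spiking channel Kv3.2, by 0.26 (in 2 of 8). No GABA-A receptor gene was called (13 tested, median -0.09). Of 36 glutamate receptor and scaffold genes Grin2d and Shank3 fell and none rose (median -0.09), with Shank3, a postsynaptic scaffold, down by 0.36 (in 2 of 8). Of 22 presynaptic genes Unc13a, a vesicle priming factor, rose by 0.27 (in 3 of 8), while Syn1, a synapsin, fell by 0.18 (in all 8) and Slc17a7, the vesicular glutamate transporter VGLUT1, fell by 0.31 (in 2 of 8), with a list median of -0.01. No core clock gene (19 tested, median -0.03) and no neuropeptide precursor (21 tested, median 0.07) was called.

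Of the 37 nuclear complex I genes 5 rose and none fell, with a median of 0.10, where 2.31% of all genes tested rose. The rises included Ndufa2 (0.18), Ndufa7 (0.30), Ndufb9 (0.15) and Ndufv3 (0.26), subunits of the first respiratory complex. When 1 library was left out, 0 to 4 members were called. With no rescaling 0 were called and with median-ratio size factors 3, while the median stayed positive at 0.08 and 0.09. No gene of complexes II and III (13 tested, median 0.09), IV (10, 0.09) or V (15, 0.06) was called, nor any mitochondrially encoded mRNA (8, 0.10) or cytosolic ribosomal protein gene (72, 0.06). The complex I median was only 0.01 in Sleepy thalamus, with 1 rise, -0.005 in cortex and 0.03 in hypothalamus. For the other lists, in the same order, the Sleepy medians were -0.003, 0.009, 0.01, -0.03 and -0.004. In wild-type thalamus the difference also varied with gene length. The median log2 difference was 0.04 over the 1905 tested genes of up to 1500 exon bases and -0.02 over the 2659 of more than 8000. The gap between both classes ran over 0.0415 to 0.0847 in the CREB libraries and -0.0182 to 0.0326 in the mCherry libraries, and median exon length was 3262.5 bases in rises, 4966.5 bases in falls and 4121 bases in all tested genes. The part of gene length in the medians of the lists was not tested. No gene of cholesterol synthesis (18 tested, median -0.07) or of the chaperones (20, -0.02) was called, and of 17 interferon response genes Stat2 alone fell, by 0.32 (in 1 of 8).

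**Figure D3:**
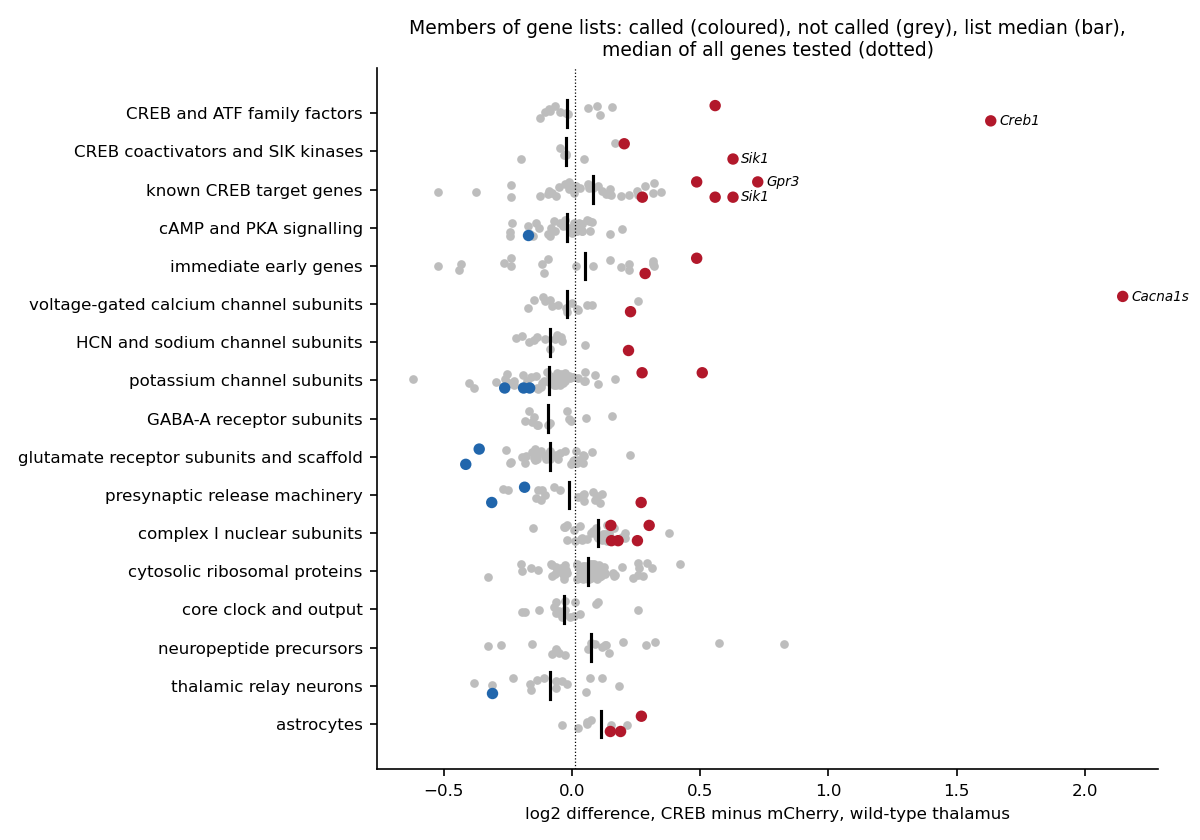
Each row is a gene list and each point a tested member at its log2 difference, CREB minus mCherry, in wild-type thalamus; red points were called higher, blue points called lower and grey points were not called, the black bar is the list median and the dotted line the median of all genes tested. Of the 38 lists 17 are shown, and their medians lie between -0.09 and 0.11, and Creb1, Cacna1s, Gpr3 and Sik1 stand to the right of their lists.

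Defining markers of thalamus were present in both groups. Tcf7l2, the defining factor of thalamic relay neurons, averaged 29.1 RPKM with CREB and 28.4 RPKM with mCherry, and Slc17a6, the glutamate transporter of these cells, 56.6 RPKM with CREB and 52.8 RPKM with mCherry. Prkcd, a kinase of relay nuclei, averaged 85.8 RPKM with CREB and 76.6 RPKM with mCherry, and none of the 3 was called. Of 16 relay neuron markers only Necab1, a calcium-binding protein gene, was called, a fall by 0.31 (adjusted p = 0.00994; in all 8; antisense model Gm11837). The 16 had a median of -0.09 (-0.19 in Sleepy thalamus), and only 4 were above 0, among them Tcf7l2, Slc17a6 and Prkcd. The summed level of the 16 was 445 to 496 RPKM with CREB and 482 to 506 RPKM with mCherry. Of 8 tested cortex markers Slc17a7 fell (median -0.15). The sum over all 10 markers of that list was lower with CREB, at 56.1 to 63.5 RPKM, than with mCherry, at 67.0 to 75.1 RPKM. Of 10 astrocyte markers Aldoc (0.19, in 5 of 8), Aqp4 (0.27, in 1 of 8) and Slc4a4 (0.15, in 0 of 8) rose, with a median of 0.11 and sums of 643 to 680 RPKM with CREB and 596 to 618 RPKM with mCherry. None of the 3 was called with no rescaling, and 2.31% of all genes tested rose in the main fit. Of 10 reticular and inhibitory neuron markers Esrrg rose by 0.18 (in 1 of 8). No marker of habenula, hypothalamus, hippocampus, striatum, reactive astrocytes, microglia, myelin, oligodendrocyte precursors, endothelium, ependyma or blood was called. The part of these shifts in other genes was not tested.

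Libraries titled for CREB and eGFP in Sleepy thalamus gave a second set of 8, which share none with the wild-type comparison. The labels do not say whether both sets received the same form of CREB. Genotype, control vector (eGFP in place of mCherry) and deposited unit (FPKM in place of RPKM) differ together between the 2 sets and cannot be told apart. In Sleepy thalamus 743 of 16845 genes were called (4.41%), 497 higher (2.95%) and 246 lower (1.46%), or 979 with no rescaling, 898 higher and 81 lower. The count fell to 335 or 309 without CREB library 1 or 4 of the Sleepy set, and to 339, 445 or 462 without its eGFP library 1, 2 or 4. Of the 576 wild-type calls 567 were tested there and 562 had the same direction (99.1%), 380 of 385 rises and all 182 falls, against 67.3% of the 16108 genes tested in both. Of these, 303 were called in the same direction in Sleepy thalamus (212 higher, 91 lower), which is 52.6% of the wild-type and 40.8% of the Sleepy calls, and 0 were called in the opposite one. The wild-type rises had a median of 0.37 in Sleepy thalamus and the falls one of -0.31.

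Creb1 averaged 17.1 ± 2.00 FPKM with CREB and 2.17 ± 0.0782 FPKM with eGFP in Sleepy thalamus (SD, n = 4 each), a log2 difference of 2.84 ± 0.10 (adjusted p = 1.52e-06). The difference in effect, wild type minus Sleepy, was -1.20 ± 0.14 for Creb1 (adjusted p = 0.00505), and Creb1 was the only one of 16937 genes for which it was called (0.0059%). Cacna1s was at 2.11 to 4.47 FPKM with CREB and 0.209 to 0.302 FPKM with eGFP (3.11 ± 0.24, adjusted p = 0.000277). Sik1 was at 4.54 to 4.85 FPKM with CREB and 2.18 to 3.02 FPKM with eGFP (0.78 ± 0.09, adjusted p = 0.00264). Gpr3 was at 2.68 to 3.18 FPKM with CREB and 0.989 to 1.42 FPKM with eGFP (1.16 ± 0.12, adjusted p = 0.00169). These genes were again without overlap. Rgs4 was at 17.7 to 31.8 FPKM with CREB and 44.1 to 50.6 FPKM with eGFP, a fall by 1.01 on the log2 scale. Hcn2 (0.24, adjusted p = 0.0157) was called as in wild type, while Cacna1g (0.22, adjusted p = 0.184) and Id2 (0.07, adjusted p = 0.691) were not. Over the 303 genes the median size of the log2 difference was 0.33 in wild-type and 0.46 in Sleepy thalamus and 287 were larger in Sleepy thalamus, without a call of that difference for any gene but Creb1. The 303 were picked from the wild-type calls by a call in Sleepy thalamus, which favours large differences there. Over all wild-type rises tested in both sets the medians were 0.32 in wild-type and 0.37 in Sleepy thalamus. Over all such falls they were -0.26 and -0.31.

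**Figure D4:**
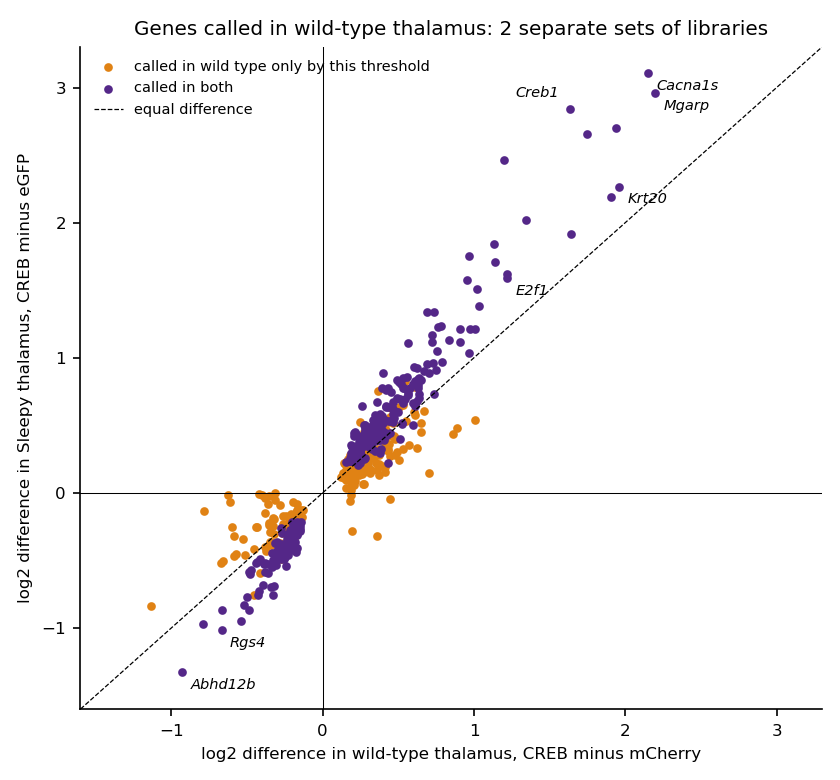
Each point is 1 of 567 genes called in wild-type thalamus and tested in both, at its log2 difference in wild-type thalamus (CREB minus mCherry, horizontal) and in Sleepy thalamus (CREB minus eGFP, vertical); purple points were called in both, orange points were not past the threshold in Sleepy thalamus, and the dashed line marks equal differences. 562 points lie in the upper right or lower left corner, and 287 of the 303 purple points are farther from 0 in Sleepy thalamus. Purple points were picked by the call in Sleepy thalamus, which favours large differences there.

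In wild-type cortex Creb1 averaged 6.53 ± 0.936 RPKM with CREB and 3.46 ± 0.276 RPKM with mCherry (log2 difference 0.91, adjusted p = 0.00045), and in hypothalamus 5.02 ± 0.232 RPKM with CREB and 3.74 ± 0.148 RPKM with mCherry (0.47, adjusted p = 0.127; SD, n = 4 each). In cortex 10 of 16065 genes were called (0.0622%), 8 higher (0.0498%) and 2 lower (0.0124%). With the replicate number as a block 1 was called, though only CREB cortex library 4 was closest to its same-numbered mCherry library. Of the 10 cortex calls, 5 were rises that thalamus shared, Creb1, Cenpa, Fchsd1, Rell2 and Ptprn, the last the secretory granule protein IA-2. In hypothalamus 0 of 16541 were called (0%) by limma, with 650 at an unadjusted p under 0.05 and 827 given by chance. Of the thalamus calls tested in both, 84.5% of 550 had the same direction in cortex, against 61.1% of all genes, and 77.8% of 554 in hypothalamus, against 57.7% of all. Median differences there were small, 0.11 for the thalamus rises and -0.06 for the falls in cortex, and 0.05 and -0.04 in hypothalamus.

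**Figure D5:**
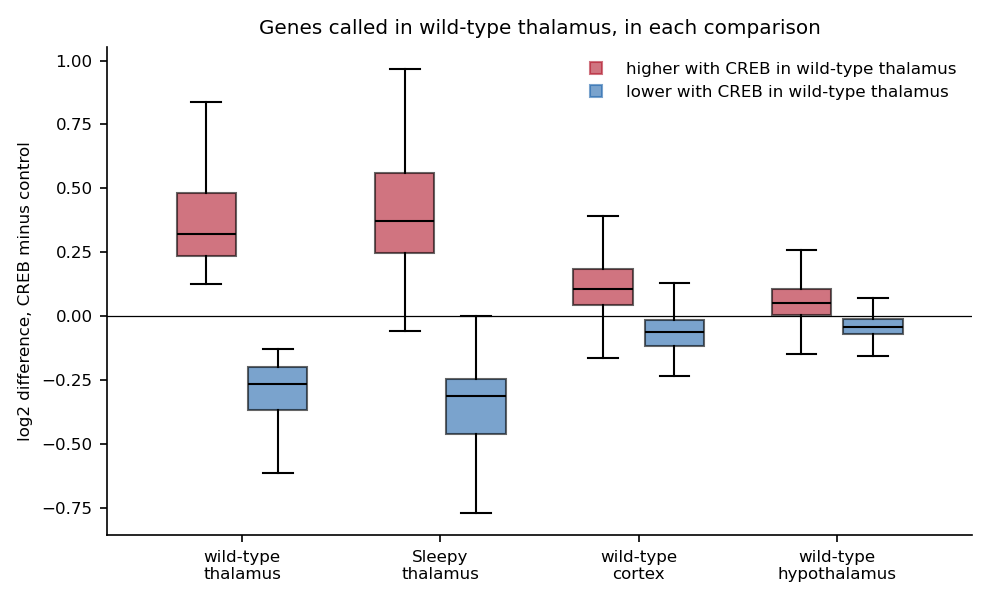
Boxes give the median and quartiles, and whiskers the range without outlying points, of the log2 difference, CREB minus its control, of the genes that rose (red) and fell (blue) in wild-type thalamus, in the 4 comparisons. The genes were chosen on the first pair of boxes; the medians of the rises are 0.32 there, 0.37 in Sleepy thalamus, 0.11 in cortex and 0.05 in hypothalamus.

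The effect of CREB differed between thalamus and cortex for 9 of 16640 genes (0.0541%), all of them called in thalamus. It was higher in thalamus for 6 genes (0.0361%), namely Mgarp (2.12), Krt20 (2.09), E2f1 (0.91), Dlk2 (0.75), Creb1 (0.70) and Hagh (0.51), and lower for 3 genes (0.018%), among them Rgs4 (-0.68) and Bok (-0.65), each the difference of 2 log2 differences. Rgs4 averaged 68.6 ± 5.93 RPKM with CREB and 70.4 ± 9.03 RPKM with mCherry in cortex, and Krt20 0.891 ± 0.281 RPKM with CREB and 1.01 ± 0.177 RPKM with mCherry (SD, n = 4 each). With mCherry, thalamus had 72.8 RPKM of Rgs4 and 0.384 RPKM of Krt20, so both genes were expressed in both regions. Mgarp did not pass the filter on low reads in the cortex comparison, so its difference sets thalamus against a low level in cortex. For Sik1 the difference from cortex was 0.21 (adjusted p = 0.724) and for Crem 0.10 (adjusted p = 0.971), and neither was called. Between thalamus and hypothalamus the effect differed for 36 of 16813 genes (0.214%), 30 higher (0.178%) and 6 lower (0.0357%) in thalamus, and 35 of these were called in thalamus. They include Cacna1s (2.16), Creb1 (1.16), Dlk2 (0.98), Hagh (0.66), Kcnab3 (0.56), Sik1 (0.42) and Rgs4 (-0.59). The split against cortex also moved, to 5 higher and 6 lower without mCherry thalamus library 3 and to 0 higher and 2 lower without CREB thalamus library 4. Without 1 library the counts were 2 to 21 for cortex and 19 to 67 for hypothalamus, and with no rescaling 2 and 28. The Creb1 difference itself was thus smaller in cortex and in hypothalamus than in thalamus, and its part in the other differences was not tested.

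Libraries of wild-type thalamus with HDAC4CA, set against the same mCherry libraries, allow values to be set side by side, but no likeness between both comparisons can be read from them because they share those libraries. Log2 differences pointed opposite ways for Cacna1s, at 2.15 with CREB and -0.89 with HDAC4CA. They pointed the same way for Crem (0.56 with CREB, 0.73 with HDAC4CA), Epor (0.95 with CREB, 1.10 with HDAC4CA), Rgs4 (-0.67 with CREB, -0.89 with HDAC4CA) and Nrep (-0.39 with CREB, -0.76 with HDAC4CA). For E2f1 the values were 1.22 with CREB and -0.15 with HDAC4CA, for Bok -0.67 with CREB and 0.19 with HDAC4CA, and for Hagh 0.63 with CREB and 0.05 with HDAC4CA. These genes were chosen after their values were seen, and CREB was not tested against HDAC4CA.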

How the data were processed

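RNA of 8 thalamus libraries, and of 24 further libraries for the comparisons with Sleepy thalamus, wild-type cortex and wild-type hypothalamus, was sequenced after selection of polyadenylated RNA with the NEBNext Ultra II DNA kit, per the labels' protocols. The submitters' processing notes name edgeR 3.28.1, featureCounts, STAR 2.6.1a and CASAVA 1.9, and the genome build GRCm38. The sources used here do not state the annotation, the strand setting or what was done with reads of several matches. Each library has its own deposited table, of 49585 genes. Per the file headers, the deposited values are RPKM in all wild-type libraries used here and FPKM in the Sleepy ones. Both units are per gene length and per library size, and so give a gene's share of its own library.

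Values of up to 20 reads, multiplied by exon length (GENCODE M21), were whole multiples of 1 step within 0.1 of a read for 95.1% to 95.5% of values in the 8 libraries. This gave the reads per gene and the depth of 20.4 to 26.4 M reads a library (14.8 to 28.2 M over all 36 libraries read, which include 4 thalamus libraries with HDAC4CA). Symbols turned into dates (26) and repeated symbols (93) were dropped, leaving 49466 genes, of which 95.2% matched an exon length. TMM factors from the recovered reads (trims 0.3 and 0.05) rescaled the values, which were then taken as log2(value + 0.1). Log2 differences on this scale come out too small where levels are low. The filter asked for a mean of 10 recovered reads or, for genes with no exon length, a mean value of 1. The test was limma 3.58.1 (trend and robust variances, R 4.3.3), and p-values were adjusted by Benjamini and Hochberg's method across the whole table. Every adjusted p is from such a fit. The fitting code in R was tested on simulated reads. The steps in Python 3.11.15 were not. No count test was made main, because the deposited unit is not a count, and voom on the recovered reads was an alternative.

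The members and the gene lists were chosen with earlier results of these data known. Named were the 12 largest rises and 12 largest falls, and the 6 of each with the smallest adjusted p, among called genes of at least 1 RPKM in the higher group without overlap of the groups; Creb1, Hdac4 and Sik3; and called members of 38 lists, up to 6 a list. Genes outside this rule (Ttr, members of lists given as not called, Hist1h2bm, Hist1h2bb, Hist1h2be, Cenpa, Mgarp and the palindrome genes) were chosen after their values were seen. Some genes that this rule gives are left out of the text. Lists were described by counts and medians. Same-numbered libraries deviated from their group means with correlations of -0.32, -0.33, 0.27 and 0.06 in wild-type thalamus, without a clear sign of pairing. With 4 libraries a group these values cannot exclude one, and the count with the number as a block is given below. In cortex all 4 correlations were above 0.1 (0.14 to 0.71), and the count with the number as a block is given there. Only CREB cortex library 4 was closest to its same-numbered mCherry library, and the labels give no pairing. Promoter sequences are RefSeq's, of GRCm38.p6, matched by symbol for 11667 of 16875 tested genes. Protein sequences were not used here.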

Additional observations from a re-analysis of the deposited data

Results flagged for a closer look

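Single libraries stood apart within their group of 4 for 8 of 206 sets of values examined, and chance alone flags about 1 in 20. With CREB, library 1 was low for Arhgap11a (0.834 RPKM, the others at 1.121 to 1.16), Atf4 (34.3 RPKM, the others at 37.2 to 37.7) and Hagh (18.7 RPKM, the others at 21.1 to 21.4). CREB library 3 was high for Tcf7l2 (31.0 RPKM, the others at 28.2 to 28.6). CREB library 4 was high for Penk, an enkephalin precursor (20.4 RPKM, the others at 8.61 to 9.42), and for Hist1h2bm (0.104 RPKM, the others at 0). With mCherry, library 1 was low for Sik2 (2.74 RPKM, the others at 3.00 to 3.03) and library 4 for Ndufb9 (81.5 RPKM, the others at 86.4 to 87.2).

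Effects of CREB that differed between regions by the test of the difference itself are given as the difference of 2 log2 differences. Thalamus minus cortex gave 2.12 for Mgarp, 2.09 for Krt20, 0.91 for E2f1, 0.75 for Dlk2, 0.70 for Creb1, 0.51 for Hagh, -0.65 for Bok and -0.68 for Rgs4. Among genes described here, thalamus minus hypothalamus gave 2.40 for Mgarp, 2.16 for Cacna1s, 1.96 for Cenpa, 1.74 for Krt20, 1.16 for Creb1, 1.13 for Ppp1r13l, 0.98 for Dlk2, 0.81 for Casz1, 0.66 for Hagh, 0.56 for Kcnab3, 0.42 for Sik1 and 0.41 for Pitpnm1. It gave -0.41 for Plxdc1, -0.53 for Bok and -0.59 for Rgs4. Some of these genes did not pass the filter on low reads in the other region, so their differences rest on low levels there. They were Mgarp in cortex and hypothalamus, and Krt20 and Cenpa in hypothalamus. Wild-type minus Sleepy thalamus gave -1.20 for Creb1.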

How the results depend on the processing

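The 576 calls in wild-type thalamus became 267 with no rescaling, 240 with no filter on low values, 249 without trend and robust variances, 200 with the replicate number as a block, and 188 to 570 when 1 library was left out. Other settings gave 495 (HDAC4CA libraries in the fit) to 697 (a mean of at least 50 reads). Sleepy thalamus gave 979 with no rescaling, 521 with the replicate block and 309 to 725 without 1 library, and without Sleepy CREB libraries 1 and 4 or eGFP libraries 1, 2 and 4 the counts were 335, 309, 339, 445 and 462. Cortex gave 5 with no rescaling, 1 with the block and 1 to 3 without 1 library. Hypothalamus gave 0 throughout. The difference between thalamus and cortex gave 2 with no rescaling, 16 without replicate 4 in both cortex groups and 2 to 21 without 1 library. That between thalamus and hypothalamus gave 19 to 67 without 1 library, 67 of them without CREB thalamus library 1. The difference between wild-type and Sleepy thalamus gave 1 throughout. The cause was not tested. Leaving out libraries in cortex, in hypothalamus and in the differences of effect was chosen after seeing the data. No gene named as called in wild-type thalamus changed its direction in the settings that tested it. But the split of higher and lower calls between thalamus and cortex, 6 and 3, became 7 and 9 without cortex replicate 4. It became 5 and 6 without mCherry thalamus library 3, and 0 and 2 without CREB thalamus library 4. Of the 63 genes the naming rule gave, calls were lost by 20 with no rescaling, 29 with the block and 9 to 29 without 1 library. The blocked fit left 2 of 5 calls among known CREB targets. With 4 libraries a group and 20.4 to 26.4 M reads, genes near 10 reads are limited by counting error.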
